A study of Mus musculus with 9 samples.

Results

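The genes described here are 10 that many cells switch on when fibroblast growth factors (FGFs) signal through RAS and ERK: Spry1, Spry2 and Spry4 of the Sprouty family, Spred1 and Spred2, the ETS transcription factor genes Etv1, Etv4 and Etv5, and the phosphatase genes Dusp6 and Dusp4. They were taken by gene symbol from the annotation of the array, and all 10 were found, as 18 of 62976 features and 10 of 24306 genes. RNA came from cells of fetal mouse lung that are described as mesenchymal. It was measured on 9 one-colour arrays, 3 in each of 3 groups named SMC, MYF and INM, and the design states 3 mice per group. The dams of all groups were given tamoxifen at E15.5 (0.1 mg per g body weight), and RFP-positive lung cells were sorted at E18.5, without culture, after staining for Acta2 and PDGFRA. SMC cells were high for Acta2 and low for PDGFRA and are described as smooth muscle of airways and vessels. MYF cells were low for Acta2 and high for PDGFRA and are described as progenitors of alveolar myofibroblasts. INM cells were low for both and are described as undifferentiated progenitors of either type. The gene that drives RFP, the strain and the sex of the mice are not given in the sources used here. RNA was amplified before labelling, and values are log2 signals.

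FGF receptors pass their signal through adaptors and RAS to the kinase ERK, which then raises the RNA of its own restraints. Sprouty and SPRED proteins act upstream of ERK, at the adaptors and at RAS and RAF, while DUSP6 and DUSP4 remove the activating phosphates from ERK itself. ETV1, ETV4 and ETV5 carry the signal on to target genes. In the developing lung, mesenchymal FGF10 acts on the epithelium, where Spry2, Etv4 and Etv5 mark the growing tips, and FGF9 acts back on the mesenchyme. Other receptor tyrosine kinases, PDGFRA among them, use the same RAS and ERK route.

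SMC replicate 1 stood apart. The correlation of its features with those of any other array was 0.425 to 0.451, against 0.864 to 0.97 among the remaining 8 (across features, which are not independent replicates). Its column was in register with the rows of the others: against their mean, r was 0.416 to 0.511 in each of 20 blocks of rows and at most 0.00757 in size at 12 shifts of the row order. Of 2807 features with a mean of at least 12 on the 8 arrays, 396 (14.1%) were under 5 on SMC replicate 1, so a low signal on it is listed here but not read as a low level in SMC cells. It was therefore left out of the means, SDs and tests given first (2 SMC, 3 MYF and 3 INM arrays), and the results that use the SMC arrays are also given with all 9. The genes of the sort followed the labels on the other 8 arrays: Pdgfra was at 6.93 and 6.89 in SMC, 13.63, 13.04 and 13.87 in MYF, and 8.66, 8.46 and 8.30 in INM. Acta2 was bright in all groups, at 15.88 and 14.79 in SMC, 14.06, 13.87 and 13.97 in MYF, and 13.43, 13.44 and 13.84 in INM. In SMC replicate 1 Pdgfra was at 1.98 and Acta2 at 14.77. Signals below are listed for replicates 1, 2 and 3 of a group in that order, so the first SMC value is the array left out.

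The 10 genes did not move together. Spry1, Spred1 and Etv1 rose in MYF cells relative to INM cells and were lower in SMC cells than in MYF cells, by 2.75-fold to 11.3-fold on these 2 comparisons, and no gene of the 10 passed the test between SMC and INM. Etv5, Dusp4 and Dusp6 leaned the other way, with their highest mean in INM and their lowest in MYF, and none of these passed. In MYF against INM, 3 of 10 genes were higher and 0 lower, while 4.35% of 24273 genes were called higher and 10.7% were called in either direction. In SMC against MYF, 3 of 10 were lower and 0 higher, while 3.54% of 24276 genes were called lower and 8.2% in either direction. In SMC against INM, 0 of 10 passed, while 0.247% of 24275 genes were called. The test was limma's, with Benjamini-Hochberg adjusted p under 0.05 over all genes. The first 2 of these comparisons share the MYF arrays, so the same 3 genes in both are not independent observations.

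With all 9 arrays, 0 of 10 genes passed in MYF against INM, where 1.1% of all genes were called. In SMC against MYF 1 of 10, Etv1, passed, beside 0.671% of all genes. In SMC against INM 0 of 10 passed as well, and 0 of all genes were called. There the adjusted p was 0.554 to 0.994 (limma), with differences of -3.32 to 0.01. The MYF and INM arrays are the same in both fits, so the difference of each gene between them was identical and its error was larger. Median differences of the 10 genes were 0.49 in MYF against INM, beside 0.05 over all genes tested, -1.29 in SMC against MYF, beside -0.05, and -0.54 in SMC against INM, beside -0.03. On all 9 arrays the medians were -2.16 in SMC against MYF, beside 0.10 over all genes, and -1.83 in SMC against INM, beside 0.03.

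**Figure D1:**
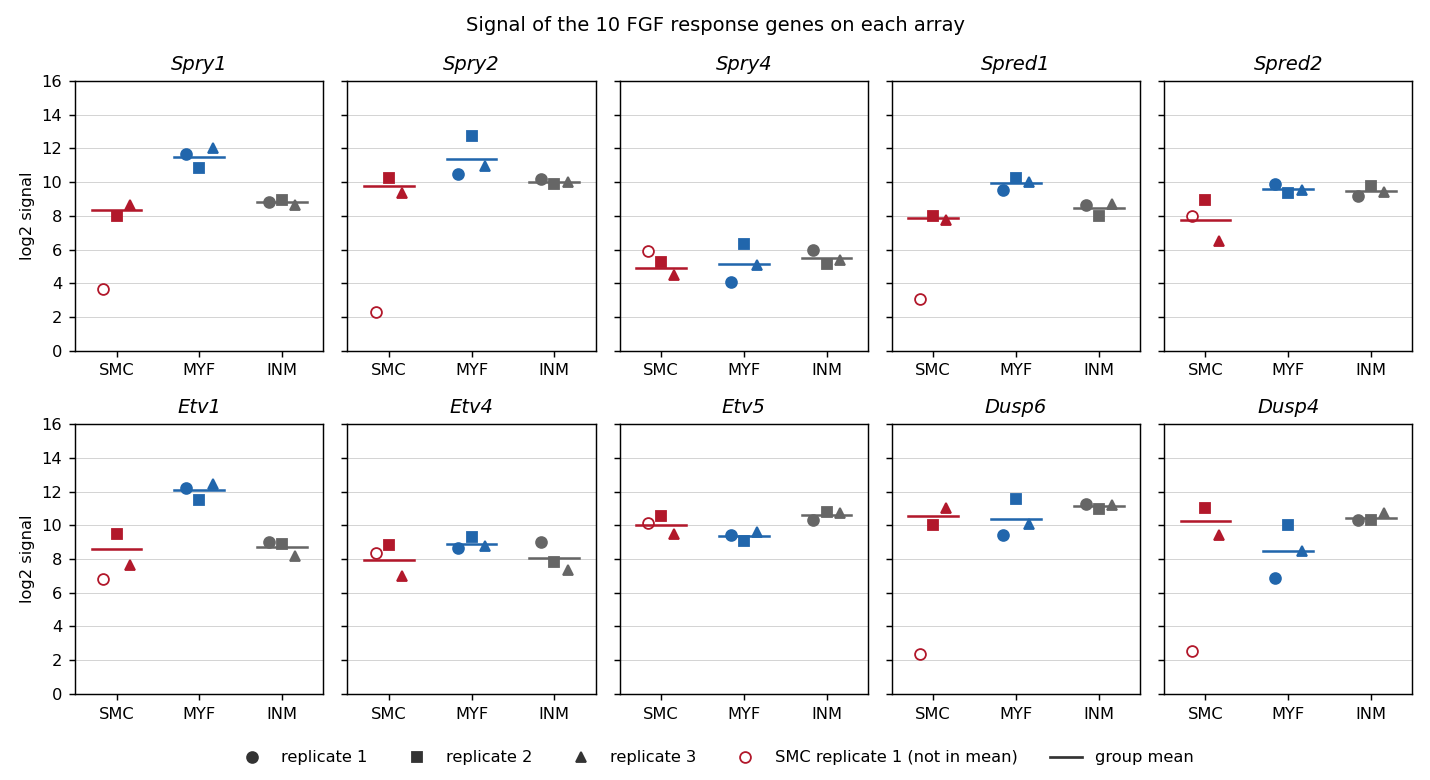
The log2 signal of each of the 10 genes (vertical axis, 0 to 16) is plotted for the SMC, MYF and INM arrays, with a marker shape for each replicate and a bar at the group mean without SMC replicate 1, which is drawn open. Spry1 and Etv1 are higher on all 3 MYF arrays than on any SMC or INM array, and SMC replicate 1 is far below the other SMC arrays for Spry1, Spry2, Spred1, Dusp6 and Dusp4.

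The promoter windows of the 3 genes that passed are shown with that of Dusp6, an ERK phosphatase that did not pass, so that the sequence at genes with different patterns can be read side by side. Sequences are RefSeq's on GRCm38.p6, from 250 bases before to 50 bases after a transcript's start, and capitals mark GGGCGG or its reverse complement, the GC box.
Spry1 promoter, chr3:37639697-37639996, plus strand: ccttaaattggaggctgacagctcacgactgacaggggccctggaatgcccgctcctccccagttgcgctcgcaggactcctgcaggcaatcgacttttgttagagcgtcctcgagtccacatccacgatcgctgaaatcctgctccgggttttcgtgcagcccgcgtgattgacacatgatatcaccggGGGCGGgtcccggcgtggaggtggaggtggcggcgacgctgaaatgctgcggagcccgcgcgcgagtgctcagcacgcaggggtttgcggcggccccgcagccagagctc
Spred1 promoter, chr2:117120821-117121120, plus strand: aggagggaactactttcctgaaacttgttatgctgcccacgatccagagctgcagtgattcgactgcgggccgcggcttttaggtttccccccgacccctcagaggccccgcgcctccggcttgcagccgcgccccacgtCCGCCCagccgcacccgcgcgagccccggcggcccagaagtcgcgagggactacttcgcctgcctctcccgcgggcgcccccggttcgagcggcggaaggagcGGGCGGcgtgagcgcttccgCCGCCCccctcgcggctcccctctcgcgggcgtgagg
Etv1 promoter, chr12:38779832-38780131, plus strand: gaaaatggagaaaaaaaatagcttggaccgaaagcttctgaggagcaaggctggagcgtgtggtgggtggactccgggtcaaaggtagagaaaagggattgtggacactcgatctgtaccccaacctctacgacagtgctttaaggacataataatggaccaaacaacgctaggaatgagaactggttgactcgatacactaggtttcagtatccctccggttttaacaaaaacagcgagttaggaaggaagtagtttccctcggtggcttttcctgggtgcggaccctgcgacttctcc
Dusp6 promoter, chr10:99262981-99263280, plus strand: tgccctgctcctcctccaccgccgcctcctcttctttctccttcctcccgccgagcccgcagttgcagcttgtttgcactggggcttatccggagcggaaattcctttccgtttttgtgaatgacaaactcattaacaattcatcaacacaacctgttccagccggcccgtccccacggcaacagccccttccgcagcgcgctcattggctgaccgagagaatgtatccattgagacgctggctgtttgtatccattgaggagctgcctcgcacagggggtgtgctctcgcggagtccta
RefSeq's set held 9 windows for 7 of the 10 genes. Each was searched on both strands for CCGGAAG, a word bound by ETS factors, for TGACGTCA, the cyclic AMP response element, and for GGGCGG, words that do not overlap one another here. CCGGAAG stood in 0 of the 9 windows and in 8.86% of all 32851 windows, TGACGTCA in 0 of 9 and 1.79%, and GGGCGG in 4 of 9 and 35.7%. Spry1 held 1 GC box and Spred1 held 3, while the windows of Etv1 and Dusp6 held none. These are matches of letters, with no measure of binding.

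Among the Sprouty genes, which encode inhibitors induced by the pathway they restrain, Spry1 separated the groups. Its signals were 3.67, 8.01 and 8.65 in SMC, 11.66, 10.86 and 12.03 in MYF, and 8.85, 8.94 and 8.63 in INM. Every MYF array was above every INM and SMC array, and SMC and INM overlapped. Spry1 was higher in MYF than in INM by 2.71 ± 0.37 (log2 difference ± SE, 6.54-fold, adjusted p = 0.00355, limma, n = 3 and 3) and lower in SMC than in MYF by 3.19 on the log2 scale (SE 0.41, 9.10-fold, adjusted p = 0.00488, limma, n = 2 and 3). On all 9 arrays these differences were 2.71 and -4.74 and neither passed (adjusted p = 0.482 and 0.116, limma). Spry1 passed under 17 of 19 alternatives in each of these comparisons, the exceptions being the fits of all 9 arrays without weights. For MYF against INM, fitting those groups alone and leaving out SMC replicate 2 or 3 are the same fit. The 17 are thus not all separate results there. More RNA per cell and more cells that make the RNA cannot be told apart in sorted bulk samples, here or for the genes below.

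Spry2, the Sprouty gene best known from the lung epithelium, had signals of 2.30, 10.23 and 9.34 in SMC, 10.49, 12.74 and 10.93 in MYF, and 10.21, 9.86 and 9.997 in INM. The MYF arrays lay above the others without overlap, but MYF replicates 1 and 3 were close to them and MYF replicate 2 was far above. The difference was 1.36 ± 0.57 between MYF and INM and -1.61 ± 0.64 between SMC and MYF, and neither passed (adjusted p = 0.187 and 0.16, limma). With SMC replicate 1 the difference between SMC and MYF was -4.10 (adjusted p = 0.333, limma).

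Spry4, a further inhibitor of the same family, was dim on every array. Its signals were 5.90, 5.28 and 4.51 in SMC, 4.07, 6.34 and 5.07 in MYF, and 5.98, 5.17 and 5.39 in INM. All groups overlapped. The 95% interval of the difference ran from -1.66 to 0.95 between MYF and INM and from -1.73 to 1.20 between SMC and MYF, and neither passed (adjusted p = 0.773 and 0.832, limma). On all 9 arrays the difference between SMC and MYF was 0.07 ± 0.67 (adjusted p = 0.959, limma), with its sign turned.

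The SPRED proteins bind RAS and hold back the activation of RAF. Spred1 had signals of 3.05, 7.99 and 7.74 in SMC, 9.54, 10.27 and 9.99 in MYF, and 8.67, 8.01 and 8.73 in INM. The groups did not overlap in any of the 3 comparisons. Spred1 rose in MYF over INM by 1.46 ± 0.32 (2.75-fold, adjusted p = 0.0276, limma) and was lower in SMC than in MYF by 2.06 on the log2 scale (SE 0.36, 4.18-fold, adjusted p = 0.0145, limma). The difference between SMC and INM was -0.60 ± 0.36 (adjusted p = 0.541, limma). The rise over INM was lost under several settings: the adjusted p was 0.0727 and 0.0952 without MYF replicates 2 and 3, 0.0716, 0.0956 and 0.062 without INM replicates 1, 2 and 3, and 0.985 with all 9 arrays (limma). The call between SMC and MYF was lost without SMC replicate 3 (adjusted p = 0.0524), without MYF replicate 3 (0.0564), with SMC and MYF fitted alone (0.0535) and with all 9 arrays (0.217, difference -3.67, limma).

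Spred2, the second gene of the pair, had signals of 7.99, 8.94 and 6.53 in SMC, 9.88, 9.37 and 9.51 in MYF, and 9.16, 9.75 and 9.44 in INM. MYF and INM overlapped, with a 95% interval of their difference from -1.16 to 1.43. The SMC arrays were apart from each other, and all 3 were below every MYF and INM array. The differences were -1.85 ± 0.63 between SMC and MYF and -1.72 ± 0.63 between SMC and INM, and neither passed (adjusted p = 0.113 and 0.324, limma). On all 9 arrays they were -1.77 and -1.63 (adjusted p = 0.265 and 0.554, limma). Without SMC replicate 2, which leaves SMC replicate 3 alone, they were -3.05 and -2.92. Without SMC replicate 3, which leaves SMC replicate 2 alone, they were -0.65 and -0.52. The size of both differences thus depended on which SMC array was kept. Both passed with all 9 arrays and array weights, at -2.63 and -2.42 (adjusted p = 0.00594 and 0.036, limma).

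Of the ETS factors, Etv1 had the largest difference among the 10 genes in MYF against INM and in SMC against MYF on the 8 arrays. Its signals were 6.84, 9.49 and 7.67 in SMC, 12.24, 11.51 and 12.48 in MYF, and 9.01, 8.91 and 8.18 in INM. All MYF arrays were above all others, and SMC overlapped INM. Etv1 was higher in MYF than in INM by 3.38 ± 0.52 (10.4-fold, adjusted p = 0.00618, limma, n = 3 and 3) and lower in SMC than in MYF by 3.50 on the log2 scale (SE 0.58, 11.3-fold, adjusted p = 0.0117, limma, n = 2 and 3). With all 9 arrays the difference between SMC and MYF was -4.08 ± 0.71 and still passed (adjusted p = 0.0473), and that between MYF and INM did not (adjusted p = 0.0672, limma). On the 8 arrays the call between SMC and MYF was lost when those groups were fitted alone (adjusted p = 0.0518), and that between MYF and INM with the mean of the 3 Etv1 probes (1.61 ± 0.45, adjusted p = 0.0569, limma).

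Etv4 and Etv5, the factors that FGF10 induces in epithelial tips, did not share this pattern. Etv4 had signals of 8.37, 8.86 and 6.98 in SMC, 8.63, 9.30 and 8.77 in MYF, and 9.01, 7.83 and 7.34 in INM, and all groups overlapped. Etv5 had signals of 10.14, 10.55 and 9.49 in SMC, 9.45, 9.10 and 9.59 in MYF, and 10.34, 10.80 and 10.75 in INM. Every MYF array was below every INM array for Etv5, and SMC overlapped both. The difference between MYF and INM was 0.84 ± 0.59 for Etv4 and -1.25 ± 0.35 for Etv5 (adjusted p = 0.44 and 0.058, limma). The Etv5 difference passed under 6 of 19 alternatives and not with all 9 arrays (adjusted p = 0.356, limma). Among the 6 was the fit of the MYF and INM arrays alone (adjusted p = 0.0216, limma). Leaving out SMC replicate 2 or 3 gave that same fit for these groups, since a lone SMC array adds no spread. The 6 are thus not 6 separate results. Between SMC and MYF the difference was -0.98 for Etv4 and 0.64 for Etv5 on the 8 arrays, and -0.83 and 0.68 on all 9, and none of these passed.

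Dusp6 and Dusp4 encode phosphatases that switch ERK off, DUSP6 in the cytoplasm and DUSP4 in the nucleus. Dusp6 had signals of 2.38, 10.03 and 11.04 in SMC, 9.44, 11.57 and 10.10 in MYF, and 11.24, 10.98 and 11.19 in INM. The INM arrays were close together, and MYF replicate 2 was above all of them. The difference between MYF and INM was -0.77 ± 0.54, with a 95% interval from -2.02 to 0.49 (adjusted p = 0.45, limma). For SMC against MYF it was 0.16 ± 0.61 on the 8 arrays and -2.56 with SMC replicate 1, so its direction turned with that array.

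Dusp4 had signals of 2.57, 11.04 and 9.44 in SMC, 6.89, 10.01 and 8.45 in MYF, and 10.32, 10.33 and 10.76 in INM. All MYF arrays were below all INM arrays, while SMC and MYF overlapped. The difference was -2.01 ± 0.76 between MYF and INM and 1.78 ± 0.85 between SMC and MYF, and neither passed (adjusted p = 0.144 and 0.227, limma). The difference between MYF and INM passed under 2 of 20 alternatives. These were -2.79 without MYF replicate 2 and -2.24 with all 9 arrays and array weights (adjusted p = 0.0418 and 0.0273, limma). Without MYF replicates 1 and 3 it was -1.23 and -2.01 and did not pass (adjusted p = 0.35 and 0.28, limma). With all 9 arrays the difference between SMC and MYF was -0.77, opposite in sign.

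**Figure D2:**
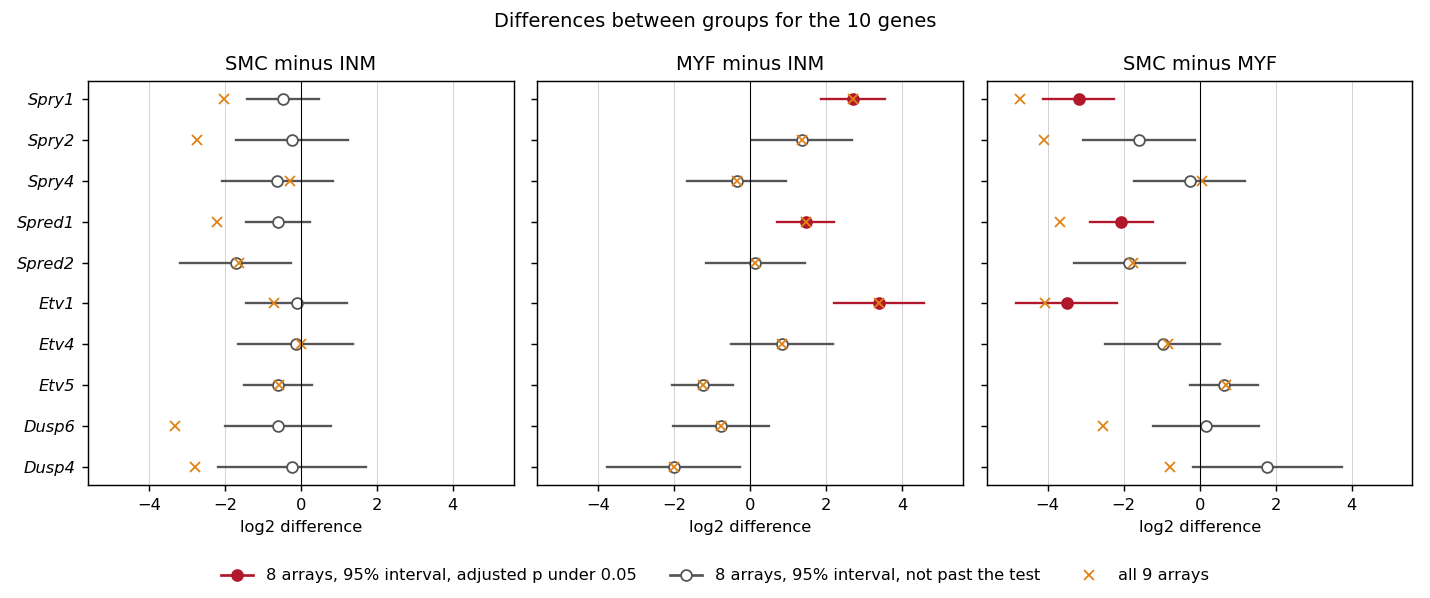
Log2 differences (horizontal axis) of the 10 genes are plotted for SMC minus INM, MYF minus INM and SMC minus MYF, with 95% intervals on 8 arrays, filled where the adjusted p is under 0.05, and crosses for all 9 arrays. Filled points are Spry1, Spred1 and Etv1, above 0 in MYF minus INM and below 0 in SMC minus MYF, and the crosses depart most from the points for Spry2, Dusp6 and Dusp4 in the comparisons with SMC.

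The mean was highest in MYF for 6 of the 10 genes and highest in INM for the other 4, and highest in SMC for none on the 8 arrays. Spry1, Spry2, Spred1, Spred2, Etv1 and Etv4 had the order MYF, INM, SMC. Etv5, Dusp6 and Dusp4 had the order INM, SMC, MYF, and Spry4 had INM, MYF, SMC. Among neighbours in these orders, the arrays of SMC and INM overlapped except for Spred1 and Spred2, those of MYF and INM overlapped for Spred2, Etv4 and Spry4, and those of SMC and MYF for Etv5, Dusp6, Dusp4 and Spry4. Groups did not overlap for 6 of 10 genes in MYF against INM, 5 of 10 in SMC against MYF and 2 of 10 in SMC against INM, shares of all genes that do so being 35.1%, 40.2% and 28.2%. With SMC replicate 1 the member counts with SMC were still 5 and 2, beside 21.3% and 15.3% of all genes. For Spry1, Spry2 and Spred1 that array was dim (3.67, 2.30 and 3.05), on the side where SMC already lay. Such low signals are not read as levels, so the unchanged counts are not added evidence.

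Spread within a group was widest in SMC and narrowest in INM by its median, with no test of the difference. The median SD over the 10 genes was 0.73 among SMC arrays, 0.55 among MYF arrays and 0.28 among INM arrays (n = 2, 3 and 3), beside 0.49, 0.40 and 0.36 over all genes. MYF replicate 2 had the highest MYF signal for 6 of the 10 genes (Spry2, Spry4, Spred1, Etv4, Dusp6 and Dusp4) and the lowest for the other 4 (Spry1, Spred2, Etv1 and Etv5). For 4 of the 10, Spry2, Spry4, Dusp6 and Dusp4, it was at least 1 log2 unit above both other MYF arrays, which 5.19% of 24185 genes were. The mean signal of 16 immediate early genes and ERK targets was also highest in MYF replicate 2, at 11.66. It was 10.56 and 10.84 in MYF replicates 1 and 3, and 10.25 and 10.45 in SMC replicates 2 and 3. In INM it was 10.71 to 11.04, and on SMC replicate 1 it was 7.85. Some genes of the list, such as Fos and Egr1, respond within minutes to stimulation and to cell dissociation. The genes of the list differed in their spread. The SD among the MYF arrays was 2.59 for Fosl1 and 1.73 for Egr2, but 0.18 for Egr1 and 0.13 for Junb. The list mean is therefore not read as a rise of each gene on MYF replicate 2. The part of such a response in these values was not tested.

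Over the 8 arrays, the member pairs with the highest correlation were Spry1 with Etv1 (Pearson r = 0.922) and Spry1 with Spred1 (0.872), and the lowest was Spry1 with Dusp4 (-0.81). These 8 points fall into 3 groups and share the arrays, so they are descriptions only. Among 12669 named genes bright enough in at least 1 group and with no empty cell, those most like Spry1 were Igfbp3 (r = 0.994), which encodes a carrier of insulin-like growth factors, and Tspan31 (0.994). Those most like Spred1 were Mapk8ip1 (0.986) and the fibrillin gene Fbn1 (0.986), and those most like Etv1 were the tight junction gene Cldn1 (0.99) and the protease gene Adamts1 (0.99).

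Most of these patterns rest on a single probe per gene. Spry1, Spry4, Etv5 and Dusp6 had 1 feature each, and where a gene had several, the brightest by its mean on all arrays stands for it. The second Spred1 probe had signals of 3.81, 7.82 and 6.94 in SMC, 8.71, 9.30 and 9.16 in MYF, and 7.36, 7.73 and 7.96 in INM, again with MYF above the other groups. Tested as a probe of its own it was 1.37 ± 0.35 higher in MYF than in INM and -1.67 ± 0.39 in SMC against MYF (adjusted p = 0.0521 and 0.0446 over all probes, limma).

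The other probes were dimmer. The second Etv1 probe had 5.03, 3.86 and 3.66 in SMC, 6.32, 4.76 and 6.43 in MYF, and 3.15, 5.65 and 3.18 in INM, and its difference between MYF and INM was 1.85 ± 0.73 (adjusted p = 0.18, limma). The third Etv1 probe lay between 2.31 and 3.90 on the 8 arrays, near the arrays' minimum of 1.65, with a difference of -0.39 ± 0.41 between MYF and INM (adjusted p = 0.637, limma). The second Spred2 probe had 5.75, 6.68 and 2.98 in SMC, 7.48, 7.07 and 7.16 in MYF, and 6.41, 7.06 and 5.998 in INM. The second Dusp4 probe had 2.58, 5.50 and 2.37 in SMC, 2.82, 3.96 and 2.87 in MYF, and 4.999, 5.86 and 3.84 in INM, with overlap between MYF and INM where the first probe had none. The second probes of Spry2 and Etv4 and the third of Spred2 were at or under 5.61 on the 8 arrays and overlapped between MYF and INM.

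**Figure D3:**
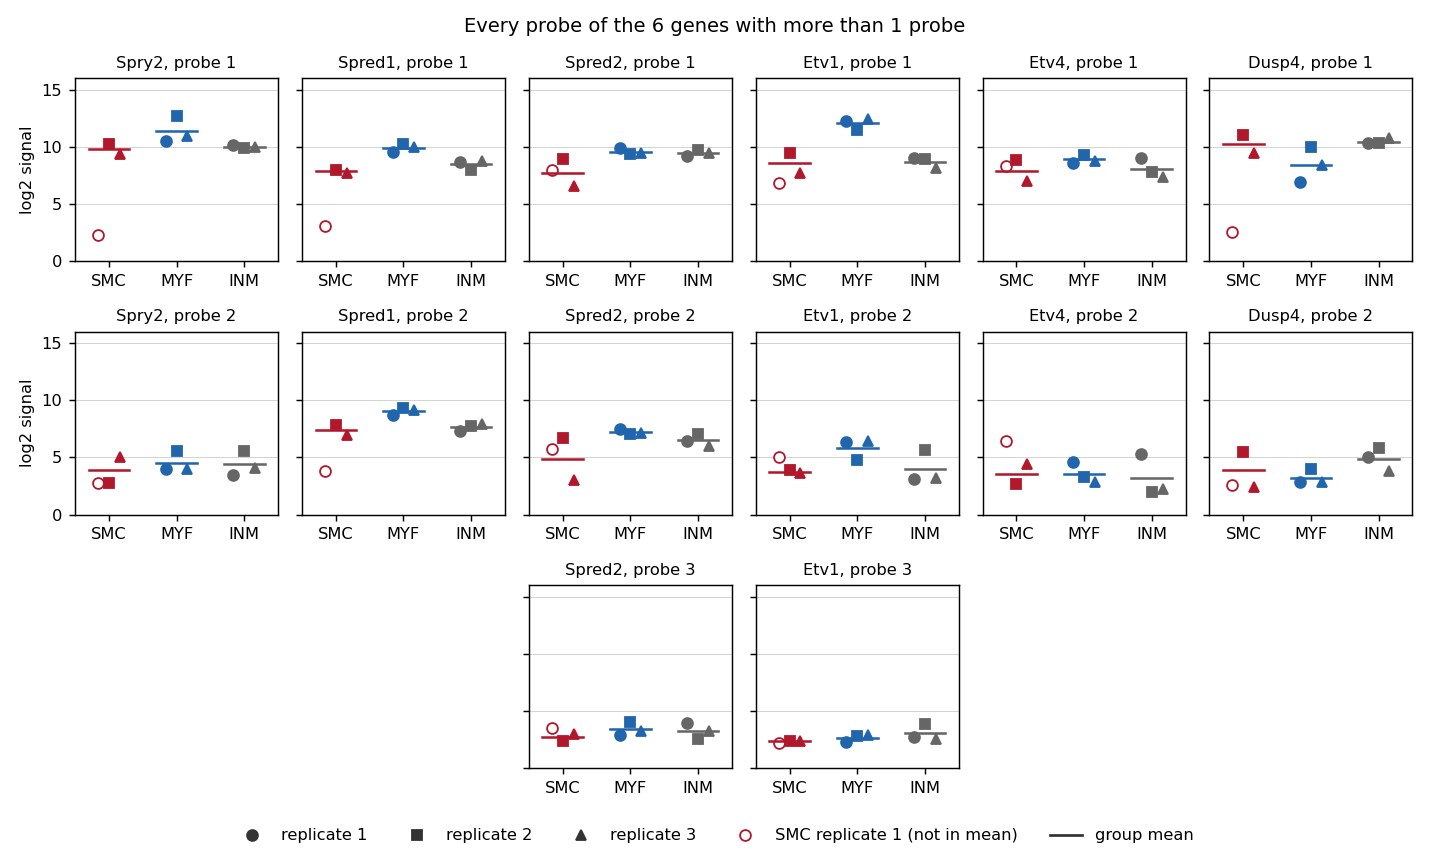
The log2 signal of every probe is plotted for the 6 genes with more than 1 probe, by group and replicate, with SMC replicate 1 drawn open and left out of the mean bars. Both Spred1 probes are highest in MYF, whereas for Etv1 the first probe is bright in MYF and the third stays near the bottom of the scale in all groups.

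Other genes of the pathway were read from lists of ligands, receptors, cascade members, feedback regulators, phosphatases, ETS factors, ERK targets and other receptor kinases, of which 94 of 97 genes were measured. In MYF against INM, 9 were higher and 9 lower, 19.1% of those measured, beside 10.7% of all genes. Among those called were Pdgfra, a gene of the sort, and genes of the cell type marker lists. The latter were Fgf18 (MYF), Kdr (endothelial) and Erbb3 (glia and nerve). The share is therefore not read as a result about the pathway. Their median difference was 0.37, beside 0.05 over all genes. On all 9 arrays 2 of them passed, Fgf1 and Flt1, both lower in MYF.

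Of 11 other feedback regulators, 2 were higher in MYF than in INM and 0 lower. Il17rd, which encodes the FGF receptor antagonist SEF, had a signal of 10.66 ± 0.40 in MYF and 8.65 ± 0.20 in INM (SD, n = 3 each), a difference of 2.005 ± 0.31 (adjusted p = 0.0068, limma). Errfi1, an inhibitor of the EGF receptor that is itself induced by that receptor, was higher by 1.61 ± 0.30 (adjusted p = 0.0139, limma). Of 10 other DUSP genes, Dusp1 was higher by 1.17 ± 0.27 and Dusp14 lower by a difference of -2.70 ± 0.58. Of 12 other ETS factors, Ets2 alone passed, at 1.69 ± 0.34. Of 16 immediate early genes and ERK targets, the zinc finger gene Egr3 was higher by 2.17 ± 0.52, and the cyclin gene Ccnd1 was at -3.53 ± 0.69.

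Upstream of ERK, Fgfr1, the main FGF receptor of mesenchyme, was higher in MYF than in INM by 1.26 ± 0.29 and Fgfr3 was at -1.46 ± 0.33, 2 of 7 receptor and coreceptor genes to pass. Among 8 ligands, Fgf18 was at 2.53 ± 0.51 and Fgf1 at -4.38 ± 0.38. Of 18 adaptor and cascade genes measured, the scaffold gene Ksr1 was higher by 1.47 ± 0.30 and Hras was at -1.69 ± 0.28. Among 12 other receptor tyrosine kinases, Pdgfra, a gene of the sort, was higher, and Erbb3, Flt1, Kdr and Kit were lower, at -5.36, -5.30, -5.23 and -4.27.

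In SMC against MYF, 6 of the 94 pathway genes were higher and 10 lower, 17% of those measured, beside 8.2% of all genes, with a median of -0.46. Pdgfra of the sort and the marker genes Fgf10, Kdr and Erbb3 were among those called, so the same limit holds for this share. Errfi1 was lower in SMC (-2.68 ± 0.33), as were Dusp1 (-1.42 ± 0.30), Ets2 (-1.996 ± 0.38), Egr3 (-3.58 ± 0.59) and Fosb (-1.66 ± 0.39). The adaptor gene Frs2, which links FGF receptors to RAS, was at -1.76 ± 0.43, and Hras was higher at 1.53 ± 0.31. No receptor of the FGF list passed. Of the 8 ligand genes 1 was higher in SMC, Fgf1 (3.61 ± 0.42), and 3 were lower, among them Fgf10 and Fgf7 (-4.47 ± 0.60 and -4.16 ± 0.84). Of the 12 other receptor tyrosine kinases 4 were higher in SMC, Kdr (4.38 ± 0.55), Erbb3 (4.11 ± 0.44), Flt1 (4.04 ± 0.65) and Kit (2.69 ± 0.45), and Pdgfra was lower (-6.61 ± 0.33). On all 9 arrays 3 of the 94 passed, Fgf10 and Pdgfra lower and Flt1 higher in SMC. In SMC against INM 1 of 94 passed, Fgf10, at -5.62 ± 0.60 (adjusted p = 0.0203, limma), and none did with all 9 arrays.

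Markers of other cell types differed between the groups along with these genes. The mean signal of 12 epithelial markers was 9.86 and 11.26 on the SMC arrays, 6.59 to 6.92 on the MYF arrays and 11.41 to 11.83 on the INM arrays, and 11 of the 12 were lower in MYF than in INM. The mean of 8 endothelial markers was 8.98 and 9.46 in SMC, 5.71 to 6.35 in MYF and 9.87 to 9.99 in INM, with 7 of 8 lower in MYF than in INM. The mean of 10 heart muscle markers was 13.13 and 11.29 in the same SMC arrays, 5.17 to 6.28 in MYF, and 8.57 to 9.01 in INM. The mean of 8 leukocyte markers was 8.51 and 9.99 in SMC, 6.71 to 7.18 in MYF and 8.11 to 8.39 in INM. This list was mixed, with 1 of 8 higher and 2 lower in MYF than in INM. Its genes Ptprc and Csf1r were at 7.43 to 8.04 and 12.76 to 13.12 in MYF. In INM those 2 were lower, at 6.65 to 7.32 and 11.84 to 11.95. On SMC replicate 1 these 4 lists were at 9.53, 4.98, 6.65 and 9.06. The epithelial markers Epcam and Nkx2-1 were at 4.80 to 5.87 and 5.73 to 7.40 in MYF, against 9.86 to 10.49 and 11.68 to 12.08 in INM. Spry4, Etv5, Dusp6 and Dusp4 had their highest mean in INM, as the epithelial and endothelial lists did. Spry1, Spry2, Spred1, Spred2, Etv1 and Etv4 were highest in MYF, where those lists were lowest. The part of this RNA in the values of the 10 genes was not tested.

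Lists of markers were read for MYF and smooth muscle cells, and none was set for INM cells. The mean of 6 MYF markers, Pdgfra of the sort among them, was 11.17 and 10.53 in SMC, 13.61 to 14.05 in MYF, and 10.80 to 10.83 in INM. The mean of 7 smooth muscle markers was 13.23 and 11.75 in SMC, 9.95 to 10.49 in MYF and 9.80 to 10.90 in INM, and the smooth muscle gene Lmod1 was dim in every group. The mean of 6 matrix fibroblast markers, Fgf10 among them, was 5.644 and 5.597 in SMC, 7.06 to 7.46 in MYF and 8.46 to 9.24 in INM. In SMC replicate 1 the MYF list was at 6.52, the smooth muscle list at 9.03 and the matrix fibroblast list at 5.47.

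**Figure D4:**
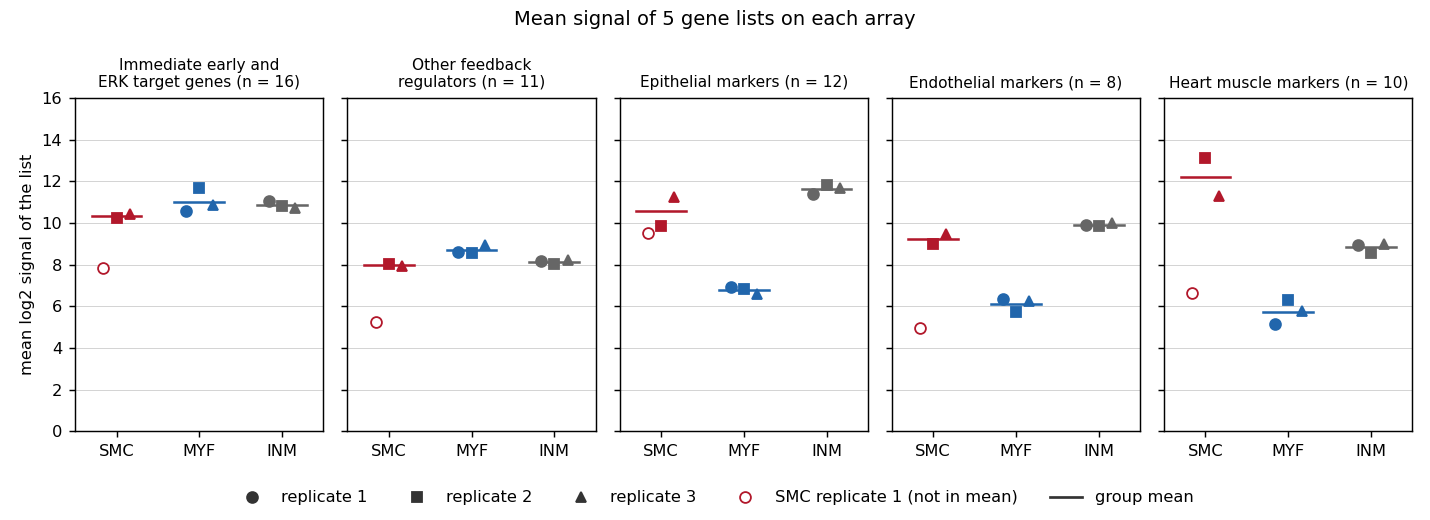
The mean log2 signal of 5 gene lists (vertical axis) is plotted for each array by group and replicate, with SMC replicate 1 drawn open and left out of the mean bars. Among the 8 arrays of the means, the MYF arrays are lowest for the epithelial, endothelial and heart muscle markers, and MYF replicate 2 is the highest array for immediate early genes and ERK targets.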

How the data were processed

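RNA was hybridised to 9 Agilent arrays in 1 colour, 3 each for SMC, MYF and INM cells. The deposited values are log2 signals made by the authors. Limma was used to make them, per the submitters' processing notes, with no version given. The 9 columns shared their minimum, median and maximum and were read as quantile-normalized. The scale was taken from the values, and 733 of 62976 features had an empty cell, which was left empty. Signals end near 16, so differences between very bright genes are narrowed.

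Symbols came from the platform annotation (43941 features with 1 symbol, 19035 with none), brought to current names with RefSeq gene records. For 24306 genes, the probe of highest mean on the 9 arrays was used. The groups were fitted with lmFit and eBayes of limma 3.58.1 (R 4.3.3), 1 mean per group, two-sided, Benjamini-Hochberg adjusted over all genes tested. An array whose median correlation with the others was under 0.7 was left out, which removed SMC replicate 1. The step was tested on simulated data. The members, lists, tests and this exclusion were chosen with earlier results of these data known. All 10 members were named, with up to 2 genes each way per pathway list and comparison, and the 2 genes most like each member that passed; Kit and, in MYF against INM, Kdr and, in SMC against MYF, Flt1 were named after their values were seen. The number of arrays limits the precision. Alternatives were all 9 arrays, array weights, a replicate block, other scalings and probe rules, a variance trend, no dim genes, the compared groups alone, a minimum difference and each array left out.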

Additional observations from a re-analysis of the deposited data

How the results depend on the processing

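The number of the 10 genes past the test was 3 in MYF against INM, 3 in SMC against MYF and 0 in SMC against INM on 8 arrays. In MYF against INM it was 0 with all 9 arrays, and 5 with all 9 arrays and array weights (3 higher, and Etv5 and Dusp4 lower). There it was 0 with all 9 arrays and the replicate block. When the MYF and INM arrays were fitted alone, with no SMC array, it was 4 (3 higher, and Etv5 lower). In SMC against MYF it was 1 with all 9 arrays, 1 with the replicate block, 0 with all 9 arrays and the block, and 1 when the compared groups were fitted alone. In SMC against INM it was 1 with all 9 arrays and array weights. Leaving out each further array gave 2 to 4, 2 to 4 and 0 to 1. The replicate block on 8 arrays gave 2 in MYF against INM; with it Spred1 did not pass there (adjusted p = 0.0802), nor did Spred1 and Etv1 in SMC against MYF (0.0643 and 0.052, limma). Same-numbered arrays had correlations of deviations of -0.0515 to 0.0214, 0 of 8 arrays correlated best with their own number, and the labels name no shared animal or day, so numbers were not used as pairs. The third Etv1 probe turned the sign between MYF and INM, at -0.39. The cause of these changes was not tested, beyond the wider spread that SMC replicate 1 adds. Further quantile normalization, centring, other probe rules, the variance trend, leaving out dim genes and a minimum log2 difference of 1 gave 2 to 4 calls in the first 2 comparisons and 0 in the last. With 2 or 3 arrays per group, differences near 1 log2 unit were within the 95% interval of most of the 10 genes.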
